A study of Mus musculus with 4 samples.

Results

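The genes described here encode the proteins of the cytosolic ribosome. They were taken from the gene table by symbol, as every gene named Rpl or Rps with a number plus Rplp0, Rplp1, Rplp2 and Rpsa, without rows marked as pseudogenes by the ending ps and without the Rps6k kinase genes. This gave 87 of 27998 genes. The 16 pseudogene rows and 10 Rps6k rows were left out. Of the 87 genes, 46 encode proteins of the large subunit and 31 of the small subunit, and these 77 are called core genes below. The other 10 were taken in by name, as paralogs, gene copies or a binding protein: Rpl22l1, Rpl6l, Rps27l, Rps27rt, Rpl10l, Rpl36al, Rps19bp1, Rpl39l, Rpl3l and Rpl7l1. All 87 matched a gene of the GENCODE M21 annotation by identifier, 86 as protein coding and 1 as a processed pseudogene. They lie on 19 chromosomes. Of the 87 genes, Rpl6l alone had no coding sequence in that annotation.

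The study measured single-cell RNA in kidneys of male C57BL/6 mice aged 6 to 8 weeks that had been injected intraperitoneally with glyoxylate, a precursor of oxalate that produces calcium oxalate crystals in the kidney. Mice had received glyoxylate for 0, 1, 4 or 7 days, and these groups are called D0, D1, D4 and D7. Each day is 1 library of dissociated kidney cells, prepared with the 10x Genomics 3′ chemistry, which counts each captured RNA molecule once by its unique molecular identifier (UMI). The sources used here give neither the dose nor whether a library holds cells of 1 animal or several. No test between days was therefore possible, and every interval below is a 95% interval for counting error only, which does not include differences between animals.

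The cytosolic ribosome is built in the nucleolus and cytoplasm from ribosomal RNA and a single copy of most ribosomal proteins, so cells need these proteins in near equal numbers. The mRNAs of ribosomal proteins, with those of elongation factors, start with a run of pyrimidines behind a first C (a 5′ terminal oligopyrimidine, or TOP, tract), through which mTORC1 and Larp1 control their translation. In the kidney, the proximal tubule takes up most of the filtrate. Several ribosomal proteins that are not built into ribosomes bind Mdm2 and so stabilise p53.

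Sequences around an annotated start are shown for 8 genes of the results below, because mRNAs of this family are known for such a tract. Rpl35a and Rps27l have further annotated starts, not shown, that lack a tract. The lines do not stand for the family: all but that of Rps28 have a tract, against 43.3% of core gene starts. Rps4x and Rps16, also high at D7, and Rpl10, high at D1, have annotated starts without a tract and are not shown. Each line runs 5′ to 3′ from 25 bases before the start to 15 bases from it on, as annotated by RefSeq on GRCm38.p6, and capitals mark a tract of a C and at least 4 further C or T that begins within 5 bases of the start. Rpl12, Rpl18 and Rps18 were among the genes with the highest ratio to D0 at D7, Rps28 and Rpl38 at D4, Rpl35a and Rpl31 were among the lowest at D7, and Rps27l took the smallest part of the family in immune cells relative to the proximal tubule.
Rpl12 (chr2:32961687-32961726, plus strand): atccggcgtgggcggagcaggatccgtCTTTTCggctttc
Rpl18 (chr7:45718046-45718085, plus strand): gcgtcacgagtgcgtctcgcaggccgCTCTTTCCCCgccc
Rps18 (chr17:33955651-33955690, minus strand): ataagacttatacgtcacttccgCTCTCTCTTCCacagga
Rpl38 (chr11:114668555-114668594, plus strand): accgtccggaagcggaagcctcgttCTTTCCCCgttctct
Rps28 (chr17:33824548-33824587, minus strand): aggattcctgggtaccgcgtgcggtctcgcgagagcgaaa
Rpl35a (chr16:33056457-33056496, plus strand): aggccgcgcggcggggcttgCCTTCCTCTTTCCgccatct
Rpl31 (chr1:39367826-39367865, plus strand): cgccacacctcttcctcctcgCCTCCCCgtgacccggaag
Rps27l (chr9:66946061-66946100, plus strand): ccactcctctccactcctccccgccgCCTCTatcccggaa

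RefSeq start sequences were at hand for 66 of the 87 genes. Among core genes, 29 of 67 annotated starts (43.3%) had a tract within 5 bases, against 18.3% of all 32851 starts in the table. A tract that began exactly at the annotated start was found at 13 of the 67 starts (19.4%) and at 2.51% of all starts. In the 300 bases around the start (250 before, 50 after), searched on both strands, the motif CCGGAAG was found at 37.3% of core starts and 8.86% of all starts, and the motif GGGCGG at 61.2% and 35.7%. The motif AAGATGG was found at 16.4% and 6.34%, CACGTG at 11.9% and 7.15%, and TATAAA at 8.96% and 13.6%. Each motif was searched on its own, so matches of different motifs may overlap. A match describes the letters of the window and is not a binding site, and the Rps28 window without a tract says only that none begins within 5 bases of this annotated start.

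The 4 libraries held 12730 to 16427 barcodes and 85009491 to 99337001 UMIs. The cell lists had different lower limits: the shallowest cell had 500 UMIs at D0 and D1, 2919 at D4 and 2773 at D7. All values therefore come from cells with at least 3000 UMIs, at least 300 genes and at most 50% mitochondrial UMIs, which kept 9854, 7449, 15720 and 13685 cells from D0 to D7. Pairs of libraries shared 50 to 81 barcodes. Cells were assigned by raw UMIs: proximal tubule by Lrp2 and Slc34a1 (2 or more together), thick limb by Slc12a1 (3 or more), distal convoluted tubule by Slc12a3 (3 or more) and immune cells by Ptprc (1 or more). A cell that passed more than one of these gates was left out (330, 389, 623 and 661 cells). Within the proximal tubule, cells with 3 or more of the 5 genes Mki67, Top2a, Cdk1, Birc5 and Ube2c are called cycling, and other cells with a Havcr1 UMI, the transcript of the injury protein KIM-1, are called Havcr1-positive.

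Marker genes that the gates did not use were high in the gates of their own cell type. The 13 proximal tubule markers summed to 73886 counts per 1000000 non-mitochondrial UMIs (CPM) in the proximal tubule gate at D0 and to 58795, 70706 and 61070 CPM at D1, D4 and D7. The 6 thick limb markers, which include Umod and Egf, summed to 15961 to 24961 CPM in the thick limb gate and to 336 to 407 CPM in the proximal tubule gate. The 5 phagocyte markers that did not define the gate (Csf1r, Cd68, Adgre1, Tyrobp and Fcer1g) summed to 7646 to 8927 CPM in phagocytes and to 487.9 to 889.3 CPM in lymphocytes. In the distal convoluted gate the 6 distal convoluted markers summed to 4746 to 7706 CPM, against 247.2 to 792.5 CPM in the thick limb. The thick limb markers summed in the distal convoluted gate to 7341 to 8687 CPM, above its own markers at D0, D1 and D7. RNA of other cells was present in every gate. In the immune gate the median proximal tubule marker reached 4.94%, 4.85%, 8.36% and 5.15% of its proximal tubule level, and all 9 phagocyte markers, with the C1q and Lyz2 transcripts, summed in the proximal tubule gate to 24.2, 42.8, 76.5 and 123.6 CPM from D0 to D7.

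Ribosomal protein genes took a large and cell-type dependent part of the RNA. In proximal tubule cells they made up 10.08% of non-mitochondrial UMIs at D0 (8719 cells, interval 10.07% to 10.09%), 11.63% at D1, 10.73% at D4 and 11.37% at D7. In distal convoluted tubule cells the share was lower, at 8.32%, 8.88%, 8.92% and 9.31% (55 to 157 cells). Phagocytes are the immune cells with 3 or more UMIs of C1qa, C1qb, C1qc and Lyz2 together and no T, B or NK cell transcript. Their share was 23.9%, 22.5%, 23.1% and 24.3%. Lymphocytes are the immune cells with a T, B or NK cell transcript and under 3 UMIs of these C1q genes and Lyz2. Their share was 33.6%, 35.0%, 28.8% and 32.8%. The order lymphocyte, phagocyte, proximal tubule, distal convoluted tubule was the same in each of the 4 libraries. Within the libraries the phagocyte share was 1.94 to 2.37 times the proximal tubule share, the lymphocyte share 2.69 to 3.34 times and the distal convoluted share 0.763 to 0.832 times. The thick limb did not keep a place in this order: its share was 1.05, 0.815, 1.03 and 0.973 times that of the proximal tubule from D0 to D7.

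**Figure D1:**
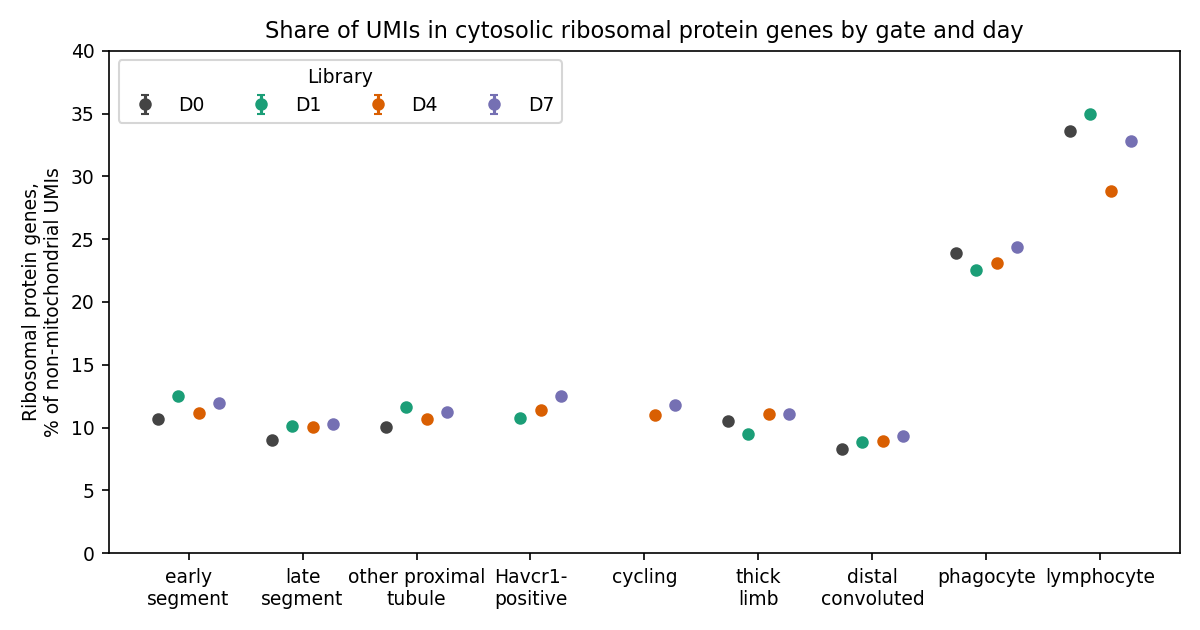
Share of non-mitochondrial UMIs in the 87 ribosomal protein genes (y axis, percent) by gate and day, 1 library per day, with bars for the 95% counting interval. Immune gates lie between 22.5% and 35.0% and all tubule gates between 8.32% and 12.6%. Sums of fewer than 20 cells are not drawn.

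The gates also differed in depth and in mitochondrial RNA. At D0 the median cell had 14.98% mitochondrial UMIs in the proximal tubule, 33.84% in the distal convoluted tubule, 26.22% in the thick limb, 3.90% in phagocytes and 5.42% in lymphocytes. Median depth was 7221 UMIs in proximal tubule cells and 3780 UMIs in phagocytes at D0. The part of these in the differences between gates was not tested. Barcodes above 50% mitochondrial UMIs, which were left out, had a ribosomal protein share of 7.33%, 7.91%, 9.99% and 9.80% from D0 to D7.

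In the proximal tubule the share was higher in each library with glyoxylate than in the single library without it. The ratio to D0 was 1.15 at D1, 1.06 at D4 and 1.13 at D7, and D7 stood 1.06 times above D4. The 3 comparisons with D0 use the same D0 library and are not independent. The median cell moved with the summed UMIs, at 9.39%, 11.17%, 10.26% and 10.91%. Early proximal tubule cells, with the glucose transporter transcript Slc5a2 and without Slc7a13, had 10.7%, 12.6%, 11.2% and 11.97%. Late cells, with the transporter transcript Slc7a13 and without Slc5a2, had 8.99%, 10.2%, 10.0% and 10.3%. The early share thus lay above the late share in each library, and both leave out cycling and Havcr1-positive cells. With edgeR's TMM factors, a scaling that holds the bulk of genes level, the ratios were 1.14, 1.02 and 1.05.

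The days differed in depth and in mitochondrial UMIs. Within each library the share was higher in cells under 10% mitochondrial UMIs than in each bin above. In proximal tubule cells under 10% mitochondrial UMIs it was 12.6%, 13.0%, 12.8% and 13.9% from D0 to D7. In cells with 10% to under 20% it was 9.07%, 9.80%, 10.3% and 10.9%, and with 20% to under 30% 8.67%, 9.51%, 10.6% and 10.9%. In cells with 30% to 50% it was 8.60%, 9.05%, 10.5% and 10.7%. At D4 and D7 the share thus did not fall with each step above 10%. Every mitochondrial bin and every depth bin was higher at D1, D4 and D7 than at D0. The ratio of D1 to D0 within mitochondrial bins, 1.03 to 1.10, was smaller than the ratio over all cells, while at D4 it was 1.02 to 1.22 and at D7 1.11 to 1.26. Median mitochondrial UMIs of proximal tubule cells were 14.98%, 9.50%, 16.94% and 17.96%. Weighting each library to the mitochondrial bins of D0 gave ratios of 1.06 at D1, 1.11 at D4 and 1.18 at D7, so D7 and not D1 was then the highest. In cells with 3000 to under 5000 UMIs the ratios were 1.10, 1.05 and 1.15, and in cells with 10000 or more they were 1.18, 1.07 and 1.15.

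**Figure D2:**
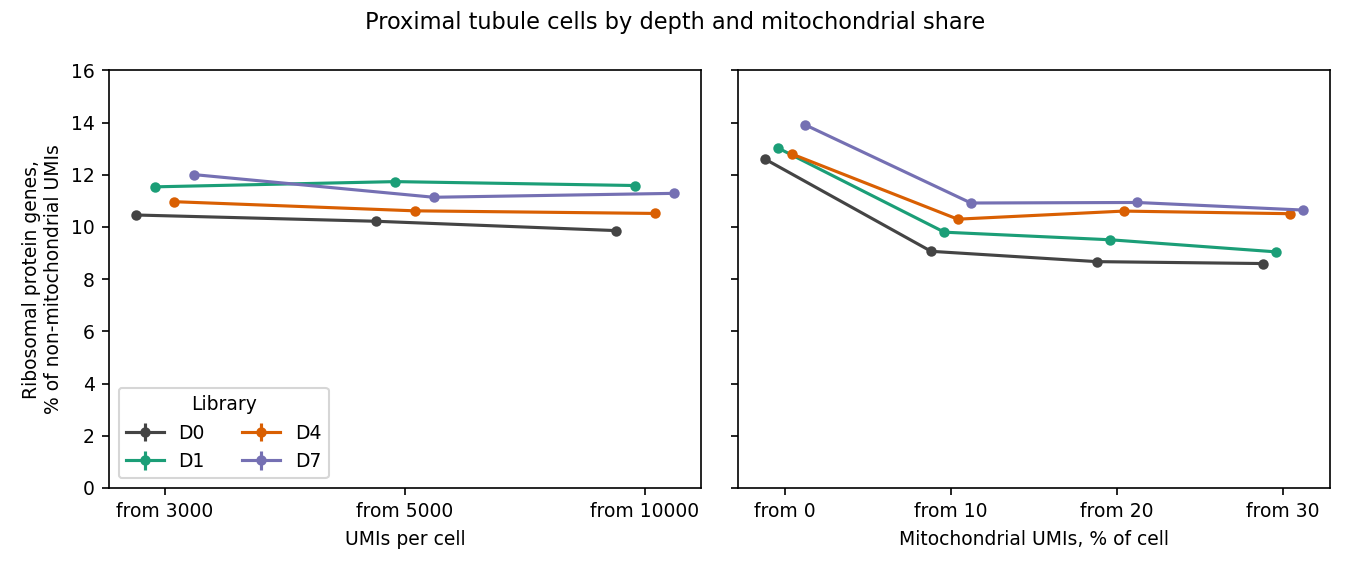
Ribosomal protein share of proximal tubule cells (y axis, percent of non-mitochondrial UMIs) by bins of total UMIs and of mitochondrial percent, 1 line per library. Shares run from 8.60% to 12.6% across mitochondrial bins at D0, and each bin lies higher at D1, D4 and D7 than at D0.

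The differences between days were small and spread over the family. Of the 87 genes, 85 had at least 50 UMIs in each pair of libraries in the proximal tubule. At D1 all 85 lay above their D0 level, against 50.3% of all 12153 genes tested. At D4 the number was 67 of 85, against 60.3% of all genes, and at D7 it was 80 of 85, against 66.8%. With TMM factors these numbers were 85, 50 and 64, and with the 50 largest other genes left out of the denominator 83 of 85 were above D0 at D1. No gene of the family was 1.5-fold higher or lower on any day on the scale of CPM plus 1, where 1.35%, 5.37% and 8.69% of all genes were higher and 1.26%, 1.02% and 1.68% lower at D1, D4 and D7. At a lower limit, a 25% difference in CPM plus 1 (or the same factor downward), 4, 4 and 5 genes of the family were higher, against 5.31%, 13.2% and 19.6% of all genes, and 0, 1 and 0 lower, against 8.73%, 4.33% and 5.39%. The higher ones were Rpl10, Rpl15, Rpl27 and Rps7 at D1 and Rpl38, Rps27, Rps28 and Rps29 at D4, those at D7 included Rpl12, Rpl18, Rps18 and Rps4x, and the lower one was Rpl3l. Rpl27 and Rps7 were named after their values were seen, because they passed this limit. With TMM factors 2, 1 and 0 genes passed it upward, with all UMIs in the denominator 37, 2 and 1, and without the 50 largest other genes 0, 4 and 0. The median log2 ratio of the family was 0.21, 0.08 and 0.16 at D1, D4 and D7, and that of all genes 0.00, 0.05 and 0.10. TMM factors moved the median of all genes at D7 to 0.00 and that of the family to 0.06.

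The median log2 ratio to D0 at D7 was 0.23 for the 31 small subunit genes, all above 1, and 0.16 for the 46 large subunit genes, of which 44 were above 1. The ratio of large to small subunit UMIs in the proximal tubule was 1.391, 1.391, 1.365 and 1.343 from D0 to D7. The same ratio was 1.155 to 1.171 in phagocytes, with no such order over the days.

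Among genes of the large subunit, Rpl12 showed the highest ratio at D7. Rpl12, at the base of the stalk to which translation factors bind, had 761.3, 848.6, 791.7 and 982.6 CPM from D0 to D7. It stood 1.29 times above D0 at D7 (interval 1.28 to 1.31), and D7 was the highest library. Rpl18, a protein of the large subunit's surface, had 951.4, 1136, 1088 and 1215 CPM, a ratio of 1.28 at D7. Rpl15, needed early in building the large subunit, had 330.4, 422.1, 348.9 and 411.1 CPM. Its ratios were 1.28 at D1 and 1.24 at D7, so D1 and D7 lay together above D0 and D4. Rpl10, which joins the large subunit last, was high at D1 with 1891 CPM, against 1481, 1434 and 1587 CPM at D0, D4 and D7. Its ratio to D0 was 1.28 at D1 and 1.07 at D7, which became 0.994 with TMM factors.

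Among genes of the small subunit, Rps4x, Rps18, Rps16 and Rps9 were among those with the highest ratios at D7. Rps4x, encoded on the X chromosome, had 1073, 1291, 1178 and 1364 CPM (1.27 times D0 at D7). Rps18, in the head of the small subunit, had 1444, 1574, 1598 and 1811 CPM (1.254 times). Rps16 and Rps9, which lie along the path of the mRNA, stood 1.248 and 1.24 times above D0. All of these genes were lowest in the D0 library and highest at D7.

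The genes at the other end at D7 were close to their D0 level. Rpl35a, a large subunit protein, had 1960, 2151, 1943 and 1903 CPM, a ratio of 0.971 at D7 (0.963 to 0.979). Rpl31 and Rpl35, near the exit of the nascent chain, had ratios of 0.988 and 1.02, the latter 0.946 with TMM factors. Rps29, a zinc-binding protein of the small subunit head, had a ratio of 1.00 (0.996 to 1.01). Rpl37a had 1.02, which was 0.943 with TMM factors. The other low ones were the gene copies Rpl3l (0.944, from 544 UMIs at D0) and Rpl7l1 (0.989), and Rps19bp1 (0.990), and their intervals include 1.

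The genes with the most UMIs in the proximal tubule at D0 included Rpl41, Rps2, Rplp1, Rpl28 and Rpl23. These levels are UMI counts, 1 per captured 3′ end, and were not divided by gene length. Rpl41, which encodes the smallest ribosomal protein, had 3117, 3498, 3450 and 3319 CPM. Rps2, at the entry of the mRNA, had 2859, 3459, 2598 and 3072 CPM, so that it was highest at D1 and lowest at D4, where its ratio to D0 was 0.909. Rplp1, a stalk protein, had 2427, 2750, 2557 and 2882 CPM. Rpl28, a protein that baker's yeast lacks, had 2312, 2569, 2265 and 2378 CPM. Rpl23, which also binds Mdm2, had 2266, 2595, 2436 and 2710 CPM. With TMM factors the D7 ratio fell below 1 for Rpl41 (0.989), Rps2 (0.998) and Rpl28 (0.955).

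**Figure D3:**
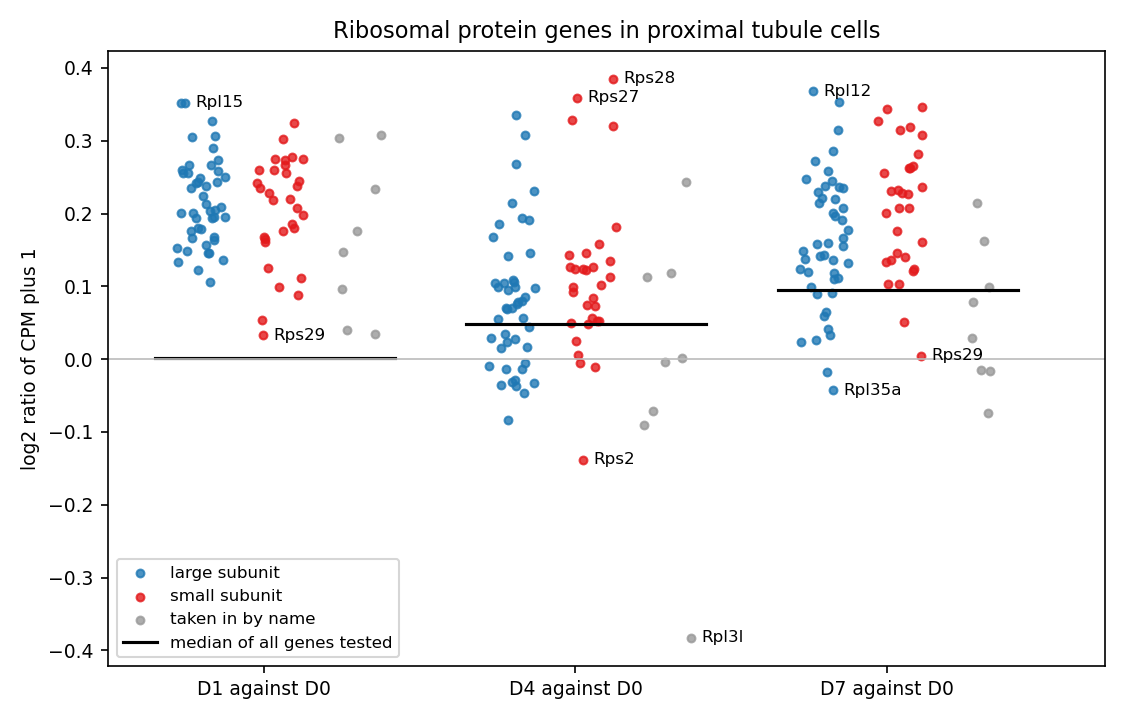
Log2 ratio to D0 of CPM plus 1 (y axis) of the 85 tested ribosomal protein genes in proximal tubule cells at D1, D4 and D7, 1 dot per gene, 1 library per day. Dots are set apart by subunit and for genes taken in by name, and the black line is the median of all genes tested (0.00, 0.05 and 0.10). Every dot lies above 0 at D1 (83 of 85 without the 50 largest other genes), and Rps28 and Rps27 lead at D4 where Rpl12 leads at D7.

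The D4 library had its own order of genes, led by those with the shortest coding sequence. Rps28, at the mRNA exit, had 780.6, 901.1, 1020 and 872.6 CPM from D0 to D7, a D4 ratio of 1.31. Rps27, a zinc-binding protein, had 911.0, 984.2, 1169 and 999.1 CPM (1.28). Rpl38, known for its part in the patterning of the mouse skeleton, had 1314, 1444, 1657 and 1374 CPM (1.26). Rps29 had 1986, 2033, 2493 and 1993 CPM (1.26). In each of these D4 was the highest library.

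Taken by coding length, the 9 core genes of 300 bases or less (Rpl37, Rpl37a, Rpl38, Rpl39, Rpl41, Rps21, Rps27, Rps28 and Rps29) lay mostly above the 68 longer ones at D4. The exception was Rpl41, whose ratio of 1.11 lay within the range of the longer genes. This limit was chosen after the values were seen, so the counts are a description. The median ratio of D4 to D0 was 1.248 for the 9 short genes, with a range of 1.11 to 1.31, and 1.05 for the 68 longer genes, of which 54 lay above 1. From D4 to D7 none of the 9 lay above 1, with a median ratio of 0.866, against 61 of 68 longer genes with a median of 1.11 and 65% of all genes tested. At D4, 4 of the family's genes were at least 25% higher and all of them were short. Other genes with a coding length of 300 bases or less had a median D4 ratio of 1.00 (235 genes). Bins of longer other genes, in order of length, had 1.006, 1.01 and 1.04. Above 300 CPM the short other genes had the highest median, 0.960 (44 genes), against 0.933, 0.925 and 0.937. From D4 to D7 the short other genes above 300 CPM had the lowest median, 0.964, against 1.022, 1.052 and 1.004. Without the CPM limit they had 1.056 from D4 to D7, against 1.057, 1.066 and 1.037.

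The short genes made up 13.39%, 12.74%, 15.19% and 12.57% of core gene UMIs in the proximal tubule from D0 to D7. The same order, with D4 highest, held in every gate with the 4 libraries. In the thick limb the part was 13.74%, 13.68%, 14.80% and 12.80%, and in the distal convoluted tubule 14.98%, 14.30%, 17.55% and 13.58%. In phagocytes it was 12.88%, 12.74%, 15.21% and 12.23%, and in lymphocytes 12.38%, 12.26%, 14.68% and 11.63%. The higher part of short genes appeared in every gate of the D4 library, and a difference in how that library was made cannot be told apart from a difference between days. Over the 77 core genes, Pearson's r between log2 coding length and the log2 ratio in the proximal tubule was 0.40 at D1, -0.52 at D4, 0.43 at D7 and 0.69 for D7 against D4. The points of each r share their libraries and depth, and the first 3 share the D0 library.

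**Figure D4:**
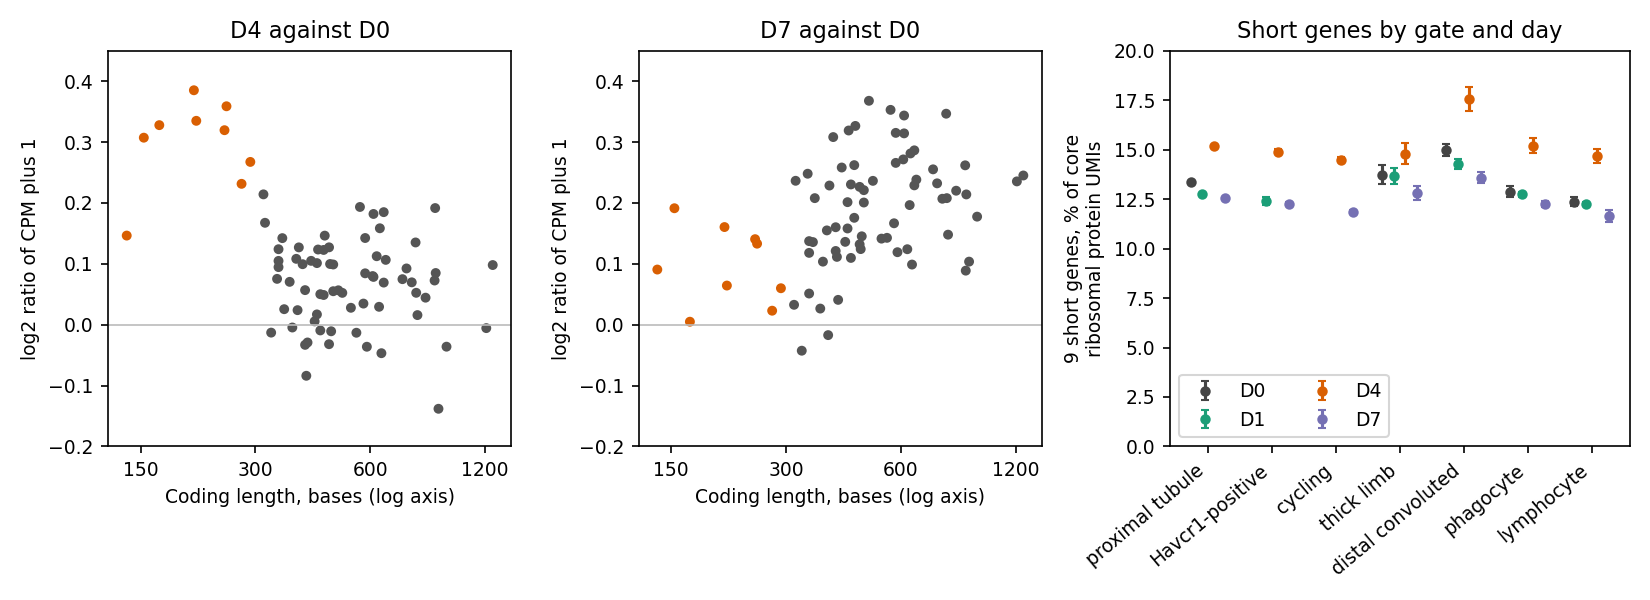
Log2 ratio of CPM plus 1 in proximal tubule cells against coding length in bases (log axis) for the 77 core ribosomal protein genes at D4 and D7 against D0, with the 9 genes of 300 bases or less in orange, and on the right their part of core gene UMIs (percent, 95% counting interval) by gate and day. At D4 all orange dots but that of Rpl41 (ratio 1.11) lie above the grey dots of longer genes, and the part of short genes is highest at D4 in each gate shown.

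Core genes with a tract near an annotated start did not have larger median ratios than those without. The 27 core genes with a tract within 5 bases of an annotated start had median ratios of 1.15, 1.06 and 1.10 at D1, D4 and D7, and the 30 with annotated starts but none had 1.18, 1.07 and 1.14. The ranges of both groups overlapped on each day, at 0.971 to 1.29 and 1.02 to 1.27 at D7. The split is by annotated starts, which need not be the starts used in these cells. It therefore cannot show whether mRNAs with a TOP tract had larger ratios.

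Havcr1-positive cells were compared with other proximal tubule cells of the same library, where dissociation and sequencing are shared. Their ribosomal protein share was 10.8% at D1 (97 cells), 11.4% at D4 (425 cells) and 12.5% at D7 (535 cells). Other proximal tubule cells had 11.7%, 10.7% and 11.3%. The ratio was thus 0.923 at D1 (0.918 to 0.929), 1.07 at D4 and 1.11 at D7 (1.10 to 1.11), lower at D1 and higher at D4 and D7. With TMM factors it was 0.889, 1.03 and 1.03. D0 had 7 Havcr1-positive cells and gives no value.

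At D7, 78 of 85 genes of the family lay higher in Havcr1-positive cells, against 61.4% of all genes, and 75 of 85 at D4, against 56.1%. At D1 the number was 11 of 85, against 52.4%. With TMM factors the numbers at D1, D4 and D7 were 7, 57 and 61. Rpl12 led at D7 with 1294 CPM against 954.9 CPM in other proximal tubule cells, a ratio of 1.36 (1.32 to 1.40). Rps16 had 2137 against 1702 CPM (1.26) and Rps20, of the small subunit head, 2126 against 1697 CPM (1.253). Rps2 and Rpl35a were at the low end, with ratios of 0.973 and 0.978, and Rpl6l, with 4 UMIs, cannot be placed. Rpl12 was therefore the gene with the highest ratio both between D7 and D0 and between Havcr1-positive and other cells at D7, and these comparisons share the D7 library. In other proximal tubule cells alone Rpl12 still stood 1.26 times above D0 at D7. In Havcr1-positive cells at D7 the median proximal tubule marker was at 69.2% of its level in the whole gate, median mitochondrial UMIs were 17.96% against 18.04% in other cells, and median depth was 7653 against 5682 UMIs. With other cells weighted to the same mitochondrial bins the D7 ratio was 1.12.

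Cycling cells differed less and depended on the scaling. Their share was 11.02% at D4 (472 cells) and 11.8% at D7 (457 cells), 1.03 and 1.05 times that of other cells of the library, but 0.910 and 0.906 times with TMM factors. Of the family, 58 of 85 genes were higher at D7, against 65.6% of all genes, but 9 of 85 with TMM factors. Rps20 had 2223 CPM, 1.31 times the other cells, and Rps16 2175 CPM, 1.28 times. Rps20 and Rps16 were thus high in cycling and in Havcr1-positive cells. Rps27rt (0.832), Rpl7l1 (0.843) and Rpl36al (0.864) were at the low end, all of them gene copies, and Rpl6l was highest in ratio with 18 UMIs. In cycling cells D4 and D7 can be compared, with 6 and 15 cells at D0 and D1.

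The other tubule segments followed the proximal tubule in part. In the distal convoluted tubule the share was 1.07, 1.07 and 1.12 times that at D0 on D1, D4 and D7, and 73 of 83 tested genes lay above 1 at D7, against 50.3% of all genes. At the limit of 25%, 13 of the 83 were higher, against 20.3% of all genes. Rps18 had 1070, 1224, 1125 and 1470 CPM, a ratio of 1.37 at D7 (1.247 to 1.515), and Rpl22l1 162.3, 197.7, 260.6 and 228.0 CPM, a ratio of 1.41 (1.09 to 1.81). Rps29 had 2167, 2045, 2578 and 1948 CPM, a ratio of 0.899. Rpl7l1 (1.46), Rpl23a (0.873) and Rpl31 (0.886) had intervals that include 1. Median mitochondrial UMIs in this gate went from 33.84% to 27.33%, 24.05% and 17.82%. The 9 phagocyte markers summed in this gate to 17.24, 776.4, 11.09 and 71.35 CPM from D0 to D7, against 28547 CPM in phagocytes at D1. The part of mitochondrial UMIs and of phagocyte RNA in the ratios was not tested.

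In the thick limb the share was 10.6%, 9.48%, 11.1% and 11.1% in 47, 57, 43 and 77 cells. The D1 ratio of 0.898 (0.883 to 0.914) was below 1, where the proximal tubule had 1.15. With all UMIs in the denominator the thick limb ratio at D1 was 1.02. Median mitochondrial UMIs of this gate were 26.22% at D0 and 15.07% at D1. At D1, 61 of 80 genes of the family lay below D0, against 59.2% of all genes, and at D7 58 of 80 lay above, against 41.7%. Rps28 had 633.1, 738.6, 797.3 and 910.5 CPM, a D7 ratio of 1.44 (1.17 to 1.78). Rps19, the gene most often mutated in Diamond-Blackfan anaemia, had 1077, 1071, 1248 and 1379 CPM (1.28). Rps29 had 2667, 1664, 2750 and 1954 CPM (0.733), with D0 and D4 high and D1 and D7 low. Rps15a had a ratio of 0.826, and the intervals of Rpl15 (1.32) and Rpl35 (0.833) include 1.

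In immune cells the summed value and its parts went different ways. The share of the whole immune gate was 27.5%, 28.1%, 25.9% and 25.9%, a D7 ratio of 0.942 (0.936 to 0.948). Within phagocytes the D7 ratio was 1.02, and within lymphocytes it was 0.975. Lymphocytes have the higher share, and they were 50 of 135 immune cells at D0, 236 of 482 at D1, 31 of 96 at D4 and 31 of 258 at D7. With cells kept that passed more than one gate the D7 ratio was 1.00. The lymphocyte share of 28.8% at D4 was the lowest of the 4 libraries (0.857 times D0). In that gate at D4 the median proximal tubule marker was at 11.9% of its proximal tubule level, against 3.41%, 4.37% and 7.74% on the other days. The 4 haemoglobin genes summed there to 10863 CPM, against 19.2 CPM or less on the other days. The part of both in the lower share was not tested.

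The lowest D7 ratios in the immune gate were those of Rpl31, Rps21 and Rps27. Rps27 had 3947, 4134, 3759 and 3095 CPM (D7 ratio 0.784), Rps21, a small protein of the small subunit, 3359, 3491, 3491 and 2545 CPM (0.758), and Rpl31 1023, 920.2, 909.0 and 752.6 CPM (0.736). All of them were lowest at D7. These ratios are over the whole gate, whose part of lymphocytes differed between the days as given above. Within phagocytes Rps27 and Rps21 were at 0.836 and 0.807 times D0 at D7 and Rpl31 at 1.02 times, and within lymphocytes they were at 0.924, 0.844 and 1.11 times. Rps27a, a ribosomal protein made as a fusion with ubiquitin, had 4716, 5003, 4800 and 5599 CPM (1.19), Rps9 4598, 4710, 4490 and 5125 CPM (1.11), and Rps27l 391.8, 391.9, 470.9 and 461.5 CPM (1.18). Within phagocytes the D7 ratios of Rps27a, Rps9 and Rps27l were 1.13, 1.04 and 1.09, and within lymphocytes 1.01, 1.01 and 1.20, and of these the interval of Rps27a in phagocytes alone lay above 1. No gene of the family passed 1.5-fold at D7, where 12.6% of all genes were higher and 11.2% lower.

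Between cell types most of the family differed by more than between days. In phagocytes 75 of 85 genes were at least 1.5-fold above the proximal tubule at D0 and 2 below, against 24.4% and 52.1% of all genes. At D7 the numbers were 76 and 2, against 21% and 48.6%. In lymphocytes 81 were higher and 2 lower at D0, against 26.9% and 47.8%, and 80 and 4 at D7, against 25.2% and 51%. Rps9 had 4979, 4971, 4970 and 5190 CPM in phagocytes, against 1090 to 1356 CPM in the proximal tubule. Rpl12 had 4866, 4938, 3635 and 4665 CPM in lymphocytes, against 761.3 to 982.6 CPM. Rps27l went the other way, with 443.5, 435.8, 555.9 and 483.5 CPM in phagocytes and 316.4, 306.5, 463.5 and 380.0 CPM in lymphocytes, against 823.3 to 844.9 CPM in the proximal tubule.

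The makeup of the family, that is each gene's part of all ribosomal protein UMIs of a gate, was then set against the proximal tubule of the same library. The level of the whole family and the library are thus the same on both sides. In phagocytes 21 of 81 genes with at least 20 UMIs in each library had a larger part in all 4 libraries, with intervals above 1, and 20 a smaller part. In lymphocytes the numbers were 24 and 22 of 81, in the thick limb 10 and 8 of 80, and in the distal convoluted tubule 12 and 9 of 80. Pearson's r between libraries over genes was 0.939 to 0.973 in phagocytes, 0.933 to 0.968 in lymphocytes, 0.739 to 0.842 in the thick limb and 0.747 to 0.909 in the distal convoluted tubule, over 6 pairs of libraries each. These r describe 80 or 81 genes that share gene-specific capture in every library.

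Rps9 took 1.93, 2.03, 1.92 and 1.79 times the part in phagocytes that it took in the proximal tubule from D0 to D7. Rps2 took 0.378, 0.397, 0.399 and 0.415 times, and Rps27l 0.227, 0.267, 0.313 and 0.268 times. The 4 libraries lay within a narrow range for each of these genes and did not overlap 1. In lymphocytes Rpl12 took 1.92, 1.93, 1.71 and 1.65 times the proximal tubule part and Rps27 1.58, 1.93, 1.43 and 1.54 times. Rpsa, the laminin receptor precursor, took 1.66, 1.39, 1.56 and 1.56 times. Rps27l took 0.115, 0.121, 0.210 and 0.157 times, the lowest of the 81 genes in that gate, as in phagocytes.

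In the distal convoluted tubule Rpl31 took 1.67, 1.45, 1.58 and 1.51 times its proximal tubule part, and in the thick limb 1.27, 1.51, 1.35 and 1.36 times. Rpl10 took 0.683, 0.634, 0.655 and 0.652 times in the distal convoluted tubule and Rpl28 0.690, 0.648, 0.697 and 0.728 times. In the thick limb Rps19 took 0.631, 0.715, 0.667 and 0.716 times and Rps27l 0.577, 0.759, 0.590 and 0.633 times. Rps2 was below 1 and Rps9 above 1 in all 4 gates and all 4 libraries. Counts of Rps27, Rps27rt and Rps27l, and of core genes with processed pseudogenes, are uncertain where reads match a near-identical copy. With at most 25% mitochondrial UMIs, 5 in place of 12 genes had a larger part in the distal convoluted tubule.

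**Figure D5:**
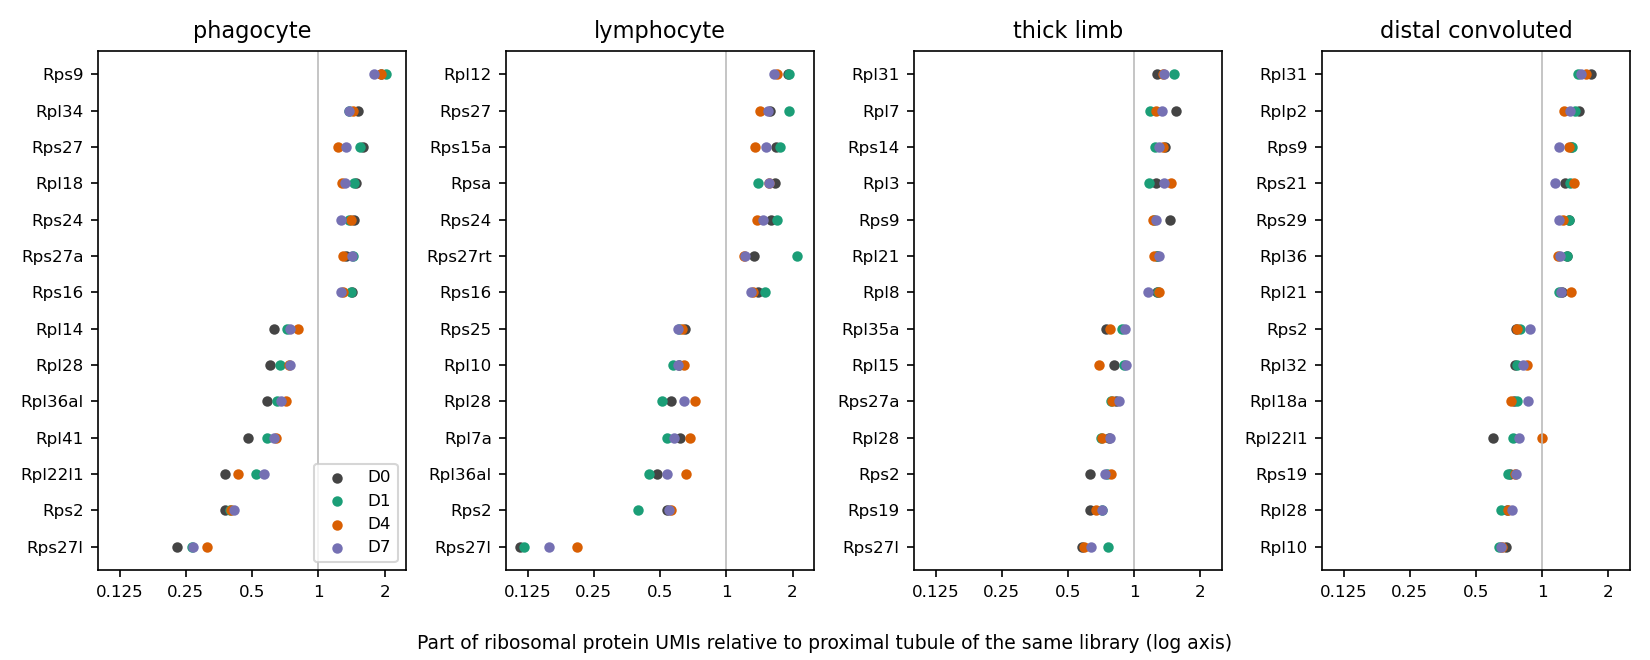
Part of a gene in the ribosomal protein UMIs of a gate divided by its part in the proximal tubule of the same library (log axis), 1 dot per library, for the 7 highest and 7 lowest of the genes shown in each of 4 gates. The 4 dots of Rps27l lie at 0.115 to 0.210 in lymphocytes and those of Rps9 at 1.79 to 2.03 in phagocytes.

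The paralogs and gene copies did not move as a group. Rps27l, a p53 target in other settings, had 825.2, 844.9, 823.3 and 842.2 CPM in the proximal tubule from D0 to D7, a D7 ratio of 1.02 (0.948 with TMM factors), while its parent Rps27 had a D7 ratio of 1.10. Rpl22l1, which Rpl22 represses, had 330.4, 353.3, 314.3 and 354.1 CPM, and Rpl22 873.8, 1013, 942.0 and 973.0 CPM. Rpl36al had 835.3, 925.2, 836.3 and 881.8 CPM, and Rpl36a 597.2, 706.4, 670.7 and 703.7 CPM, so the copy had more UMIs than the parent in each library. Rps27rt had 61.3 to 76.1 CPM and Rps19bp1, whose protein binds Rps19, 58.5 to 66.8 CPM. Rpl7l1 had 78.04 to 85.55 CPM. Rpl3l, the copy of Rpl3 used by striated muscle, had 8.91, 10.7, 6.60 and 8.41 CPM, a D4 ratio of 0.741, and Rpl3 683.0, 843.8, 680.3 and 804.2 CPM. In early cells alone Rpl3l had 2.42, 2.81, 3.99 and 5.39 CPM, a D7 ratio of 2.22 (1.47 to 3.42) from 36 and 70 UMIs that passed 1.5-fold on the CPM plus 1 scale, and in late cells 12.4, 13.98, 8.07 and 9.80 CPM, a ratio of 0.789. Rpl6l had 107 UMIs at D0, or 1.75 CPM. Rpl39l, known from testis, had 0, 1, 0 and 1 UMIs, and Rpl10l, also known from testis, had 0 UMIs in all cells.

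Ribosomal protein genes that carry other names were looked at apart from the family, and Gnb2l1 and Fau lay above D0 on each day. Gnb2l1, the small subunit protein also called Rack1, had 798.6, 919.2, 853.3 and 980.1 CPM in the proximal tubule (D7 ratio 1.23). Fau, which encodes a small subunit protein, had 1856, 2149, 1980 and 1938 CPM (1.04). With TMM factors the D7 ratio of Fau was 0.970. Of 11 elongation factors and other TOP genes, 11 lay above D0 at D1, 8 at D4 and 11 at D7, against 50.3%, 60.3% and 66.8% of all genes. None passed 1.5-fold, against 1.35%, 5.37% and 8.69% of all genes, and the D7 median log2 ratio was 0.18. With TMM factors 11, 6 and 9 lay above D0, and Eef1a1 was at 0.990 times D0 at D4. Eef1a1, the main elongation factor, had 3281, 3688, 3381 and 3708 CPM, and Eef1b2, its exchange factor, 500.4, 602.6, 565.4 and 659.6 CPM (1.32). Npm1, a nucleolar chaperone, had 319.8, 426.2, 359.0 and 432.5 CPM (1.35). Hnrnpa1 (1.43) and Pabpc1 (1.29) were the others that were at least 25% higher at D7.

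Genes that build ribosomes and genes that start translation are read against the same shares of all genes (50.3%, 60.3% and 66.8% above D0, and 1.35%, 5.37% and 8.69% past 1.5-fold upward). Of 32 biogenesis factors, 26, 25 and 31 lay above D0 at D1, D4 and D7, and 0, 1 and 2 passed 1.5-fold upward, with a D7 median log2 ratio of 0.27 where that of all genes was 0.10. Nop58 and Nop56, core proteins of box C/D particles, had D7 ratios of 1.77 and 1.53, with 24.9, 30.7, 36.4 and 44.1 CPM for Nop58. Gar1 and Polr1a, of box H/ACA particles and RNA polymerase I, had ratios of 1.51 and 1.53, which fell short of the limit on the CPM plus 1 scale. Of 26 initiation factors, 23, 13 and 22 lay above D0, with median log2 ratios of 0.15, 0.00 and 0.12, and 2 passed 1.5-fold at D7: Eif4ebp1, an inhibitor of cap binding and mTORC1 target (13.7 to 23.7 CPM, ratio 1.73), and Eif6, which keeps large subunits apart until they are mature (98.9 to 155.8 CPM, 1.58). Eif3d had a ratio of 1.36 and Eif4a1 of 1.28. With TMM factors 25, 21 and 25 biogenesis factors and 22, 12 and 14 initiation factors lay above D0, and Nop58 and Eif4ebp1 still passed 1.5-fold at D7 where Nop56 and Eif6 did not.

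Of 6 genes of p53 and its targets, 6 lay above D0 at D7, against 66.8% of all genes, and 3 passed 1.5-fold, against 8.69%: Cdkn1a, a cell cycle inhibitor (7.03, 12.2, 21.8 and 28.7 CPM), Phlda3 (2.74 to 7.32 CPM) and Bbc3 (1.64 to 3.24 CPM, D7 ratio 1.98). Mdm2 had a ratio of 1.38. Of 11 genes that control ribosome supply, 2, 7 and 9 lay above D0 at D1, D4 and D7, against 50.3%, 60.3% and 66.8% of all genes, and 2 passed 1.5-fold at D7, against 8.69%: Myc, which drives ribosomal genes (14.1, 13.9, 36.9 and 40.5 CPM, ratio 2.88), and Atf4, a stress factor (64.6, 61.6, 98.7 and 98.8 CPM, 1.53). Ddit4, an mTORC1 inhibitor, had a ratio of 1.53, just below the limit on the CPM plus 1 scale, and Eif2ak3 1.29. Mtor had 50.0, 41.4, 47.7 and 47.9 CPM and Larp1 58.3, 52.7, 54.6 and 59.5 CPM, so neither stood more than 1.02 times above its D0 level. With TMM factors 2, 6 and 7 of these control genes lay above D0, Atf4 was at 1.41 times D0 at D7 and Larp1 at 0.949 times.

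Over 25 sums of cells by gate and day with at least 20 cells, the level of single genes was set against the summed level of the family. These sums share libraries, and most of their spread is between immune and tubule cells. For a gene of the family the summed level includes the gene itself, which is not so for other genes. Of 83 genes of the family with at least 50 CPM, 75 had a Pearson's r above 0.9, with a median of 0.980. Over the 9 sums of proximal tubule cells alone 20 of the 83 had an r above 0.9, with a median of 0.808, and Rps29 (-0.08), Rpl35a (-0.01) and Rpl38 (0.06) were near 0. The genes below 0.9 over the 25 sums included Rpl10 (0.899), Rpl31 (0.831), Rpl22l1 (0.817), Rps2 (0.699), Rpl7l1 (-0.311), Rps19bp1 (-0.419) and Rps27l (-0.684), which had 0.686 over the proximal tubule sums. Of 2736 other genes, 90 had an r above 0.9. The 10 genes outside the family with the highest r were Gnb2l1 (0.991), Eef1b2 (0.985), Pfn1, Dusp2, Eif3h, AW112010, Fau, Ccnd2, Ptprc and Nsa2 (0.957). Ptprc defined the immune gate, and every tubule cell with a Ptprc UMI was left out, so its r followed from the gates. Over the proximal tubule sums, Gnb2l1 had an r of 0.944 and Eef1b2 of 0.899, and Fau one of 0.143. There Eif3h had 0.690, Dusp2 0.574, Pfn1 0.532, Nsa2 0.266, AW112010 0.084 and Ccnd2 -0.091.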

How the data were processed

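Each library was deposited as 1 matrix of raw UMI counts, a whole number for every gene in every listed cell. The submitters' processing notes name Cell Ranger 3.1.0 and mm10 for what the authors ran, and the file headers give software version 3.0.1. The sources used here state neither the annotation release nor how cells were called. The members and gene lists were chosen with earlier results of these data known.

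Counts were summed over the cells of a gate in each library. A share is the ribosomal protein UMIs over all non-mitochondrial UMIs, with exact Clopper-Pearson 95% intervals. A level is the count per 1000000 non-mitochondrial UMIs (CPM), and its ratio has an exact 95% interval for 2 Poisson counts. A gene was tested with at least 50 UMIs in the 2 sums together and called at 1.5-fold, or 1.25-fold, in CPM plus 1. With 1 library per day there is no p-value. The ratios and intervals were checked on simulated Poisson counts only, which do not hold the spread between cells or animals. No doublet caller was run. Named genes were the 8 highest and 8 lowest ratios at D7 and 3 each at D1 and D4 in the proximal tubule, 3 each in the other gates, the 6 most abundant, and all paralogs with their parents, plus up to 4 genes per list. A few genes this rule names are not reported here.

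Coding lengths are the longest coding sequence per gene in GENCODE M21, without the stop codon. Start sequences are from RefSeq on GRCm38.p6, with tracts searched on the strand of the gene. Alternatives changed the depth floor (500 UMIs), the mitochondrial limit (25%), cells past more than one gate, doublets (the deepest cells left out, 0.8% per 1000 cells), the denominator, the scaling (edgeR TMM factors only), the weight of cells, the pseudocount and the low count filter. Weighting to mitochondrial bins and the grouping by coding length were added after seeing the data. The software was Python 3.11.15 with numpy 2.4.6, scipy 1.17.1, pandas 2.3.3 and matplotlib 3.10.9, and R 4.3.3 with edgeR 4.0.16.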

Additional observations from a re-analysis of the deposited data

Results flagged for a closer look

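The ribosomal protein share moved in opposite directions in different cells of the same libraries in 2 comparisons. At D7 it was above D0 in the proximal tubule and 0.9419 times D0 in immune cells, but within phagocytes the ratio was 1.018 and with cells kept that passed more than one gate it was 1.004, so the opposite direction did not hold there. At D1 it was above D0 in the proximal tubule and 0.8982 times D0 in the thick limb, which turned to 1.015 with all UMIs in the denominator. With 1 library per day neither difference was tested.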

How the results depend on the processing

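With 1 library per day, differences between animals cannot be separated from differences between days, and all limits below concern processing only. Depth limits the thick limb, distal and immune gates, with 31 to 482 cells per library. No paired analysis was possible because each day has 1 library. Over 464 alternatives of share ratios 16 turned to the other side of 1, and over 903 of named genes 27 did. Only results whose main interval left out 1 were counted as turned, so the others may have crossed 1 uncounted. The cause of each change listed was not tested. No gene of the family passed 1.5-fold in all proximal tubule cells under the cell filters, denominators, TMM factors, pseudocount and low count filter run; within early cells Rpl3l did at D7, with 2.42 and 5.39 CPM at D0 and D7.

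The proximal tubule ratios at D1, D4 and D7 to D0 stayed above 1 throughout. They were 1.151, 1.066 and 1.132 with at least 500 UMIs per cell, 1.141, 1.038 and 1.108 with at most 25% mitochondrial UMIs, and 1.168, 1.068 and 1.135 with cells past more than one gate. They were 1.153, 1.068 and 1.127 without the deepest cells, 1.144, 1.077 and 1.143 as a mean over cells, and 1.233, 1.051 and 1.103 over all UMIs. They were 1.138, 1.023 and 1.048 with TMM factors, 1.125, 1.063 and 1.09 without the 50 largest other genes, and 1.156, 1.066 and 1.13 for core genes only. Within early cells they were 1.172, 1.045 and 1.117, and within late cells 1.13, 1.113 and 1.148. In cells of 3000 to under 5000 UMIs they were 1.103, 1.048 and 1.148, in cells of 5000 to under 10000 UMIs 1.15, 1.04 and 1.09, and above that 1.175, 1.067 and 1.145. Weighted to the mitochondrial bins of D0 they were 1.062, 1.108 and 1.176.

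The ratio of D7 to D4 in the proximal tubule was 1.062 with the lower depth floor, 1.067 with the stricter mitochondrial limit, 1.063 with cells past more than one gate and 1.055 without the deepest cells. It was 1.061 as a mean over cells, 1.05 over all UMIs, 1.024 with TMM factors and 1.026 without the 50 largest genes. It was 1.069 and 1.031 in early and late cells, and 1.095, 1.049 and 1.073 in the 3 depth bins.

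The thick limb ratio of D7 to D0 was 1.069 with the lower depth floor, 1.071 with the stricter mitochondrial limit, 1.207 over all UMIs, 1.129 with TMM factors and 1.119 without the 50 largest genes. The distal convoluted ratio was 1.101 with the stricter mitochondrial limit, 1.133 with cells past more than one gate, 1.289 over all UMIs and 1.135 without the 50 largest genes. The immune ratio was 0.9221 with the lower depth floor, 0.9354 with the stricter mitochondrial limit, 0.9824 with TMM factors and 0.9752 within lymphocytes. It turned to 1.004 with cells past more than one gate and to 1.018 within phagocytes.

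The ratio of Havcr1-positive to other cells at D7 was 1.1 with cells past more than one gate, 1.081 without the deepest cells, 1.087 as a mean over cells, 1.03 with TMM factors, 1.067 without the 50 largest genes and 1.12 with matched mitochondrial bins. For cycling cells it was 1.041 without the deepest cells, 1.083 over all UMIs and 1.01 with matched mitochondrial bins, and it turned to 0.9058 with TMM factors and 0.9665 without the 50 largest genes. At D4 it turned to 0.9102 and 0.9538 under these settings.

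Genes at least 25% higher at D1, D4 and D7 numbered 2, 2 and 2 with the stricter mitochondrial limit, 37, 2 and 1 over all UMIs and 2, 1 and 0 with TMM factors, and 0 at D1 and D7 without the 50 largest genes.

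Other ratios that turned were those of D1 to D0 in the thick limb (1.015 over all UMIs), in thick limb and distal cells together (0.9809 as a mean over cells), in immune cells (0.9595 with the lower depth floor, 0.942 within phagocytes), in phagocytes (1.095 with cells past more than one gate) and in lymphocytes (0.9559 with the lower depth floor). Further ones were D4 to D0 in phagocytes (1.08 with the lower depth floor, 1.004 as a mean over cells), D7 to D0 in lymphocytes (1.002 with the lower depth floor) and D7 to D4 in distal convoluted cells (0.9937 with TMM factors).

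Single genes of the proximal tubule, among those whose main interval lay above 1, turned below 1 as follows. At D1 without the 50 largest genes Rps27l was 0.9982 and Rps29 0.9975. At D4 with TMM factors Rpl12 was 0.9994, Rpl7 0.991 and Rps20 0.9781, and Rps20 was 0.996 with the stricter mitochondrial limit. At D7 with TMM factors Rpl10 was 0.9944, Rpl22l1 0.9951, Rpl28 0.9552, Rpl35 0.9458, Rpl36al 0.9802, Rpl37a 0.9434, Rpl38 0.9709, Rpl41 0.9887, Rpl6 0.9875, Rps2 0.9977 and Rps27l 0.9477. At D7 with the stricter mitochondrial limit Rpl35 was 0.9987, Rpl37a 0.9992 and Rps27l 0.9989, and over all UMIs they were 0.9959, 0.9934 and 0.9978. Without the 50 largest genes Rpl28 was 0.9936, Rpl35 0.9838, Rpl37a 0.9814 and Rps27l 0.9858.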
